A study of Homo sapiens with 17 samples.

Results

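The S100 genes encode small proteins with a pair of EF-hand loops, most of which bind calcium and then expose a surface for partner proteins. The 10 genes described here, S100A2, S100A3, S100A4, S100A6, S100A10, S100A11, S100A13, S100A14, S100A16 and S100P, were taken by gene symbol from the deposited mRNA table of a colon cancer cell line. They are 10 of the 21 S100 genes among the 26457 RefSeq genes listed. The cells were SW480, an established human colon cancer line that carries the p53 mutant R273H, called mutp53. They expressed a doxycycline-inducible short hairpin RNA either against LacZ, here called control, or against p53, here called mutp53-depleted, and both kinds of cells received 1 µg/ml doxycycline. Each kind was harvested before (0 h) or 16 h after addition of 12.5 ng/ml TNF-α, a cytokine that activates NFκB, with 2 biological replicates (A and B) in each of the 4 groups. Control and mutp53-depleted cells were different stable cells, so that the hairpin and any difference between the 2 cell populations cannot be told apart. The comparisons address which S100 mRNAs differed after mutp53 depletion, which differed after TNF-α, and whether the response to TNF-α differed between the 2 kinds of cells.

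S100 proteins work mostly as dimers. Inside the cell they bind annexins, myosin, the cytoskeleton and, for several members, p53 and MDM2, and some are released and bind receptors such as RAGE (the product of AGER) and TLR4. In colon cancer, S100A4 is best known for its link to motility and metastasis, S100A10 for plasminogen binding at the cell surface, and S100P as a marker raised in many gastrointestinal tumors. Most of the family lies in a cluster on the long arm of chromosome 1 among the genes of the epidermal differentiation complex, and 9 of the 10 genes described here are there. S100P is on chromosome 4.

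Normalized reads are reads on the exons of a gene, scaled by the authors to the same total in every library. The libraries held 6108488 to 13809578 reads on genes, replicate A was the larger library in each of the 4 groups, and 1 read was worth 0.67 to 1.515 normalized reads. NFKBIA, an immediate target of NFκB, was 13.8-fold higher after TNF-α in control cells and 5.11-fold higher in mutp53-depleted cells. Of 9 markers of colon epithelium, 7 had a mean of at least 2.5 normalized reads and CDX1 was at 0 in every library. Their summed level was 66178 to 70708 normalized reads at 0 h in control cells, 56292 to 56382 at 16 h, and after depletion 52455 to 52480 at 0 h and 42729 to 43897 at 16 h. KRT8 and KRT18 made up most of this sum, and single markers went different ways. With depletion at 0 h EPCAM, KRT8, KRT18, CDH1 and VIL1 were lower, and KRT19 and CDX2 higher. VIL1 was at 545 and 480 in control cells at 0 h and at 8.71 and 12.3 after depletion. The part of these differences in the S100 results was not tested. The 6 leukocyte markers summed to between 24.2 and 106, with PTPRC at 0 throughout. The 5 fibroblast markers summed to between 24.2 and 107, with COL3A1 and DCN at 0 throughout, and the 3 endothelial markers to between 5.69 and 28.8. Below, differences are log2 fold changes of normalized reads + 1 from limma, each with its standard error or 95% interval, and p-values are adjusted over all 14800 genes tested. A gene is called where it passes an adjusted p of 0.05 and changes at least 2-fold.

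SW480 cells held 8 of the 10 S100 mRNAs at 251 normalized reads or more in every library and the other 2 at a few reads per library. Levels of different genes are compared as normalized reads per kb of exon. S100A4 was the highest in all 4 groups, with 14570 ± 877 (SD, n = 2) in control cells at 0 h, and over the 8 libraries its mean per kb ranked 7 among all genes with a read. S100A6, the calcium sensor also called calcyclin, followed with 5532 ± 404, S100A11 with 5326 ± 573 and S100A10 with 3170 ± 170. S100A6 and S100A11 did not differ beyond their spread there, because their libraries overlapped, and they overlapped again in both groups of mutp53-depleted cells. S100A2 was at 1151 ± 58.4, S100A16 at 818 ± 65.5, S100A3 at 714 ± 139 and S100A13 at 459 ± 29.2, and the libraries of S100A16 and S100A3 overlapped. S100P was at 12.4 ± 0.657 and S100A14 at 2.78 ± 1.91. The order of the first 5 genes changed only where S100A6 and S100A11 overlapped. By its mean, S100A3 moved from rank 7 in control cells at 0 h to rank 6 at 16 h. In mutp53-depleted cells S100A3 was at rank 8 at 0 h and 7 at 16 h. At 16 h its libraries overlapped those of S100A2 in control cells and those of S100A13 in mutp53-depleted cells. Together the 10 genes took between 0.222% and 0.260% of the reads on genes in the 8 libraries. S100A4 made up 37.5% to 38.8% of their normalized reads in the 4 libraries at 0 h and 27.4% to 30.3% in the 4 libraries at 16 h.

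**Figure D1:**
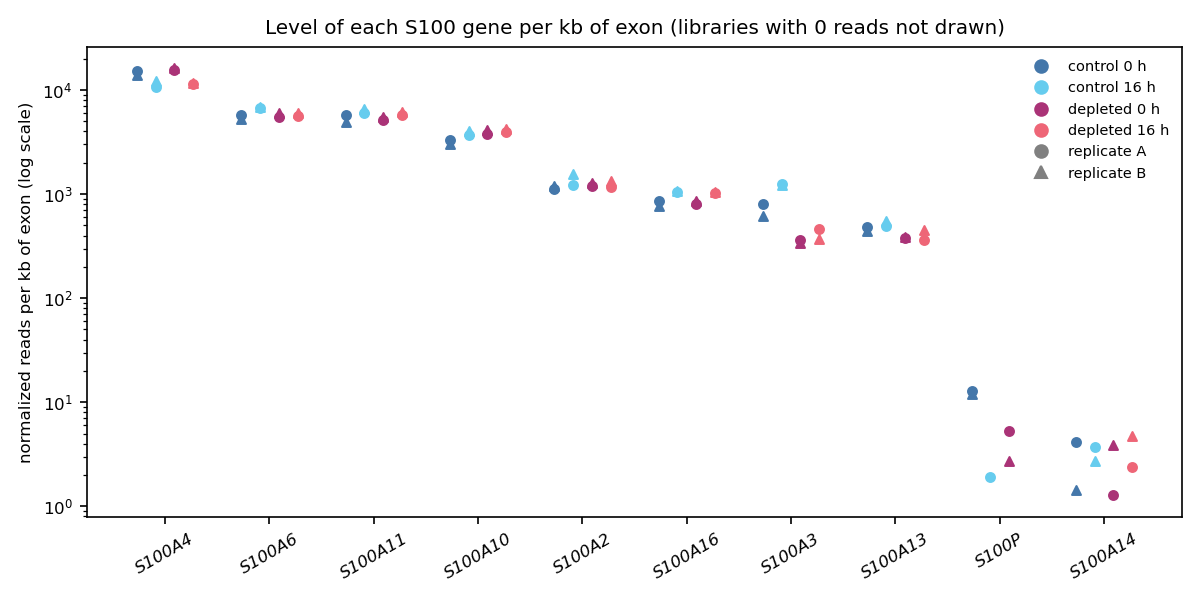
Normalized reads per kb of exon (log scale) of the 10 S100 genes, ordered by their mean over the 8 libraries, with 1 point per library, colour for the group and shape for the replicate; libraries with 0 reads are not drawn. S100A4 lies above every other gene in each group, and S100P and S100A14 reach at most 12.9 normalized reads per kb.

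Of the 9 S100 genes on chromosome 1, S100A10 and S100A11 form a pair and the other 7 lie further along the arm, in the order S100A6, S100A4, S100A3, S100A2, S100A16, S100A14 and S100A13, all transcribed from the minus strand. In the coordinates of the table, which its header names as hg19, S100A4 is at chr1:153516095-153518282 and S100A3 at chr1:153519809-153521734, with 1527 bases between them. S100A5, an S100 gene outside the 10 that is expressed in few adult tissues, is at chr1:153509623-153514241, 1854 bases from S100A4 on its other side. These 3 adjacent genes went different ways with mutp53 depletion, so the 250 bases before a RefSeq start of each are shown, in build GRCh38.p14 and on the minus strand, 5′ to 3′. They were read from RefSeq at chr1:153540935-153541184 for S100A5, chr1:153545807-153546056 for S100A4 and chr1:153549259-153549508 for S100A3. Capitals mark an AP-1 motif (TGANTCA) in S100A5 and S100A3 and a TATA box (TATAAA) in S100A4.
S100A5: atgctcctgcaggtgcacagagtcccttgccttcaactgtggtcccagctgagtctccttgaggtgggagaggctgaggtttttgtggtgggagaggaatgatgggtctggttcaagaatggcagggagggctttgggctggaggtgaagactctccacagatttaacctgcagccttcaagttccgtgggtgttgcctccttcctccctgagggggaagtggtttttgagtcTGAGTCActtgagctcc
S100A4: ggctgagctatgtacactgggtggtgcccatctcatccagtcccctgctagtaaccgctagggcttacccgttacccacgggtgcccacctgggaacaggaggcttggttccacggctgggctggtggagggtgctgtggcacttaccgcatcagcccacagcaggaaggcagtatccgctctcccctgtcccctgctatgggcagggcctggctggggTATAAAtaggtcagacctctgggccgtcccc
S100A3: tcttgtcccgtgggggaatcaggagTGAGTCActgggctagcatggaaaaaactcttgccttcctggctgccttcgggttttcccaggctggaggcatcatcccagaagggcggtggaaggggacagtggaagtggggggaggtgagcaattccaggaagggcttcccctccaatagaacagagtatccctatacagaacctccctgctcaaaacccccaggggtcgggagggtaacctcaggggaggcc
The TATA box of S100A4 begins 31 bases before the start. The AP-1 motif begins 17 bases before the start shown in S100A5 and 225 bases before it in S100A3. The other RefSeq start of S100A5, with its window at chr1:153541760-153542059, has no AP-1 motif. By its distance from S100A4, that other start is the nearer to the start of the S100A5 transcript in the deposited table. Which start was used in these cells was not tested. Both strands of 300-base windows (250 before and 50 after the start) were searched for these 2 motifs and for the NFκB consensus and the p53 half-site. The 10 genes and S100A5 had 16 such windows. AP-1 was found in 3 of them (S100A2, S100A3 and S100A5) against 7.72% of 34943 windows of all genes, and TATAAA in 3 (S100A4, S100A13 and S100P) against 11.6%. The NFκB consensus was in 1 (S100A14) against 11.3% and the p53 half-site in 1 (S100A16) against 6.64%. A match describes the letters in the window and says nothing about binding.

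Among the 9 of the 10 S100 genes that were tested (all but S100P), S100A3 had the largest log2 fold change. It encodes a cysteine-rich protein that binds zinc and is known from the hair cuticle. In control cells it measured 595 and 451 normalized reads at 0 h and 918 and 895 at 16 h of TNF-α, and in mutp53-depleted cells 268 and 251 at 0 h and 336 and 273 at 16 h. All 4 mutp53-depleted libraries were below all 4 control libraries, and the 2 control groups did not overlap. At 16 h the level in mutp53-depleted cells was 0.336 of that in control cells, a log2 fold change of -1.58 (SE 0.122, limma adjusted p = 5.20e-09). At 0 h it was 0.496 of the control level, with a log2 fold change of -0.996 (SE 0.122, adjusted p = 1.78e-06) that fell just short of the 2-fold part of the call. The call at 0 h was made by edgeR and DESeq2. Without replicate A or B of control cells at 0 h the log2 change was -0.80 or -1.20. Without replicate A or B of mutp53-depleted cells at 0 h it was -1.04 or -0.95. TNF-α raised S100A3 in control cells 1.73-fold (log2 0.81, SE 0.122, adjusted p = 5.78e-05). Without replicate A of control cells at 0 h the log2 change was 1.004, past 2-fold, and without replicate B it was 0.61. In mutp53-depleted cells the change with TNF-α was 1.17-fold (log2 0.22, SE 0.122, adjusted p = 0.195), although the libraries of the 2 times did not overlap.

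The difference between these 2 responses of S100A3 was tested as an interaction. It was -0.58 on the log2 scale (SE 0.172, 95% interval -0.94 to -0.22), and its limma p adjusted over all genes was 0.0845, which missed the threshold. The size depended on single libraries. Without replicate A of control cells at 0 h the interaction was -0.78, and without replicate B -0.38. Without replicate A of mutp53-depleted cells at 16 h it was -0.73, and without replicate B -0.43. An antisense-strand gene, LOC101928034, overlaps all 1926 bases of S100A3, and its highest value was 36.2 normalized reads.

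S100A5, next to S100A4, differed in the other direction. It measured 10.2 and 3.03 normalized reads at 0 h in control cells, 10.6 and 2.85 at 16 h, and after mutp53 depletion 63.0 and 64.4 at 0 h and 38.6 and 53.1 at 16 h. All mutp53-depleted libraries were above all control libraries. The log2 fold change was 3.27 at 0 h (SE 0.5, limma adjusted p = 2.39e-05) and 2.79 at 16 h (SE 0.5, adjusted p = 0.000131). Both calls held in the 17 alternatives with a test of their own, but the size rests on a few control reads. It was 4.01 and 2.54 at 0 h without replicate A or B of control cells at that time, and 3.59 and 1.99 at 16 h without replicate A or B of control cells at 16 h. S100A5 was a low transcript, with a mean over the 8 libraries of 43.6 normalized reads per kb.

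S100A4, which lies between them and encodes the myosin-binding protein also called metastasin, differed with TNF-α and not detectably with mutp53 depletion. Its normalized reads were 8479 and 7787 at 0 h in control cells, 6027 and 6870.1 at 16 h, and after mutp53 depletion 8662 and 9021 at 0 h and 6375 and 6507 at 16 h. The 4 libraries at 16 h were below the 4 libraries at 0 h. TNF-α lowered S100A4 to 0.793 of its level in control cells (log2 -0.34, SE 0.076, limma adjusted p = 0.00260) and to 0.729 in mutp53-depleted cells (log2 -0.46, SE 0.076, adjusted p = 0.000174). It was the one S100 gene of the 9 tested that fell past the adjusted p with TNF-α in both kinds of cells, and it passed in the 17 alternatives that had a test of their own. The interaction was -0.12 (95% interval -0.35 to 0.10), and the difference between mutp53-depleted and control cells was 0.12 at 0 h (95% interval -0.04 to 0.28) and 0.00 at 16 h (-0.16 to 0.16).

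**Figure D2:**
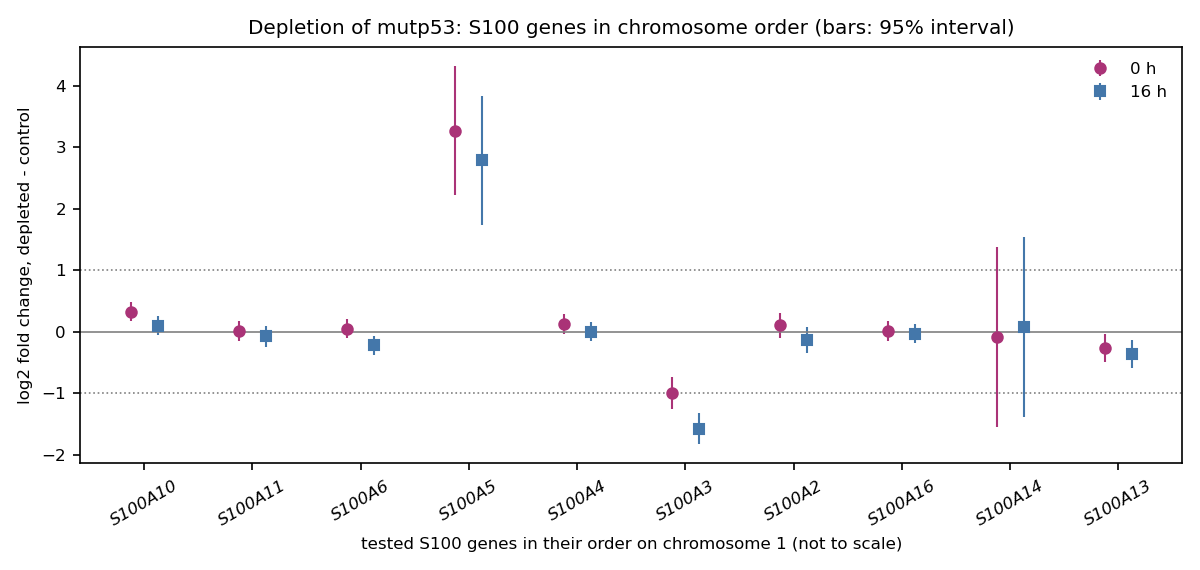
log2 fold change of mutp53-depleted over control cells (y axis) at 0 h (circles) and 16 h (squares) for the tested S100 genes in their order on chromosome 1, with 95% intervals; dotted lines mark 2-fold. S100A5 lies at 3.27 and 2.79 and S100A3 at -0.996 and -1.58 on either side of S100A4, which lies near 0.

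The annexin-binding members S100A10, S100A11 and S100A6 were higher after TNF-α in control cells. S100A10, or p11, does not respond to calcium and forms a complex with annexin A2 that binds plasminogen. It measured 3455 and 3203 normalized reads at 0 h in control cells, 3880.45 and 4204 at 16 h, and after mutp53 depletion 3981 and 4374 at 0 h and 4168 and 4463 at 16 h. The control libraries at 0 h were the lowest of all and overlapped with no other group. TNF-α raised it 1.21-fold in control cells (log2 0.28, SE 0.074, limma adjusted p = 0.00862), and mutp53 depletion raised it 1.25-fold at 0 h (log2 0.33, SE 0.074, adjusted p = 0.00115). The TNF-α change lost the threshold without replicate B of control cells at 0 h (0.23, adjusted p = 0.0942) or at 16 h (0.22, adjusted p = 0.0662). In mutp53-depleted cells the groups overlapped and the TNF-α change was 0.05 (95% interval -0.11 to 0.20). The interaction was -0.23 (95% interval -0.45 to -0.01, adjusted p = 0.329).

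S100A11, a partner of annexin A1, measured 3375 and 2898 normalized reads at 0 h in control cells, 3513 and 3859.7 at 16 h, and after mutp53 depletion 3069.8 and 3236 at 0 h and 3369 and 3623 at 16 h. The libraries at 16 h were above those at 0 h within each kind of cell, whereas control and mutp53-depleted cells overlapped at both times. TNF-α raised it 1.18-fold in control cells (log2 0.24, SE 0.08, limma adjusted p = 0.0360), and the log2 change in mutp53-depleted cells was 0.15 (SE 0.08, adjusted p = 0.187). The control result is weak. Its adjusted p rose to 0.370 without replicate B of control cells at 0 h, to 0.215 without replicate B at 16 h, and to 0.0579 and 0.0546 without replicate A or B of mutp53-depleted cells at 0 h.

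S100A6 measured 3944 and 3557 normalized reads at 0 h in control cells, 4509 and 4691 at 16 h, and after mutp53 depletion 3699 and 4071 at 0 h and 3839 and 4058 at 16 h. The 2 control libraries at 16 h were above all the others. TNF-α raised S100A6 1.23-fold in control cells (log2 0.30, SE 0.074, limma adjusted p = 0.00559), and the change in mutp53-depleted cells was 0.02 (95% interval -0.13 to 0.18). At 16 h mutp53-depleted cells were at 0.858 of the control level (log2 -0.22, SE 0.074, adjusted p = 0.0180), and at 0 h the groups overlapped. The difference at 16 h lost the threshold without replicate B of control cells (-0.19, adjusted p = 0.0727) or replicate A of mutp53-depleted cells at that time (-0.18, adjusted p = 0.139). The TNF-α change lost it without replicate B of control cells at 0 h (0.22, adjusted p = 0.0856). The interaction was -0.27 (95% interval -0.49 to -0.05, adjusted p = 0.220).

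S100A16, a widely expressed member, was higher after TNF-α in both kinds of cells. Its normalized reads were 1245 and 1112 at 0 h in control cells, 1522 and 1539 at 16 h, and after mutp53 depletion 1147 and 1224 at 0 h and 1485 and 1509 at 16 h. All 4 libraries at 16 h were above all 4 at 0 h. The rise was 1.30-fold in control cells (log2 0.38, SE 0.075, limma adjusted p = 0.000816) and 1.26-fold in mutp53-depleted cells (log2 0.34, SE 0.075, adjusted p = 0.00231). Without replicate A of mutp53-depleted cells at 0 h the second change was 0.29 with an adjusted p of 0.0509. The interaction was -0.04 (95% interval -0.26 to 0.18), and mutp53 depletion gave 0.01 at 0 h (-0.15 to 0.17) and -0.03 at 16 h (-0.19 to 0.13).

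**Figure D3:**
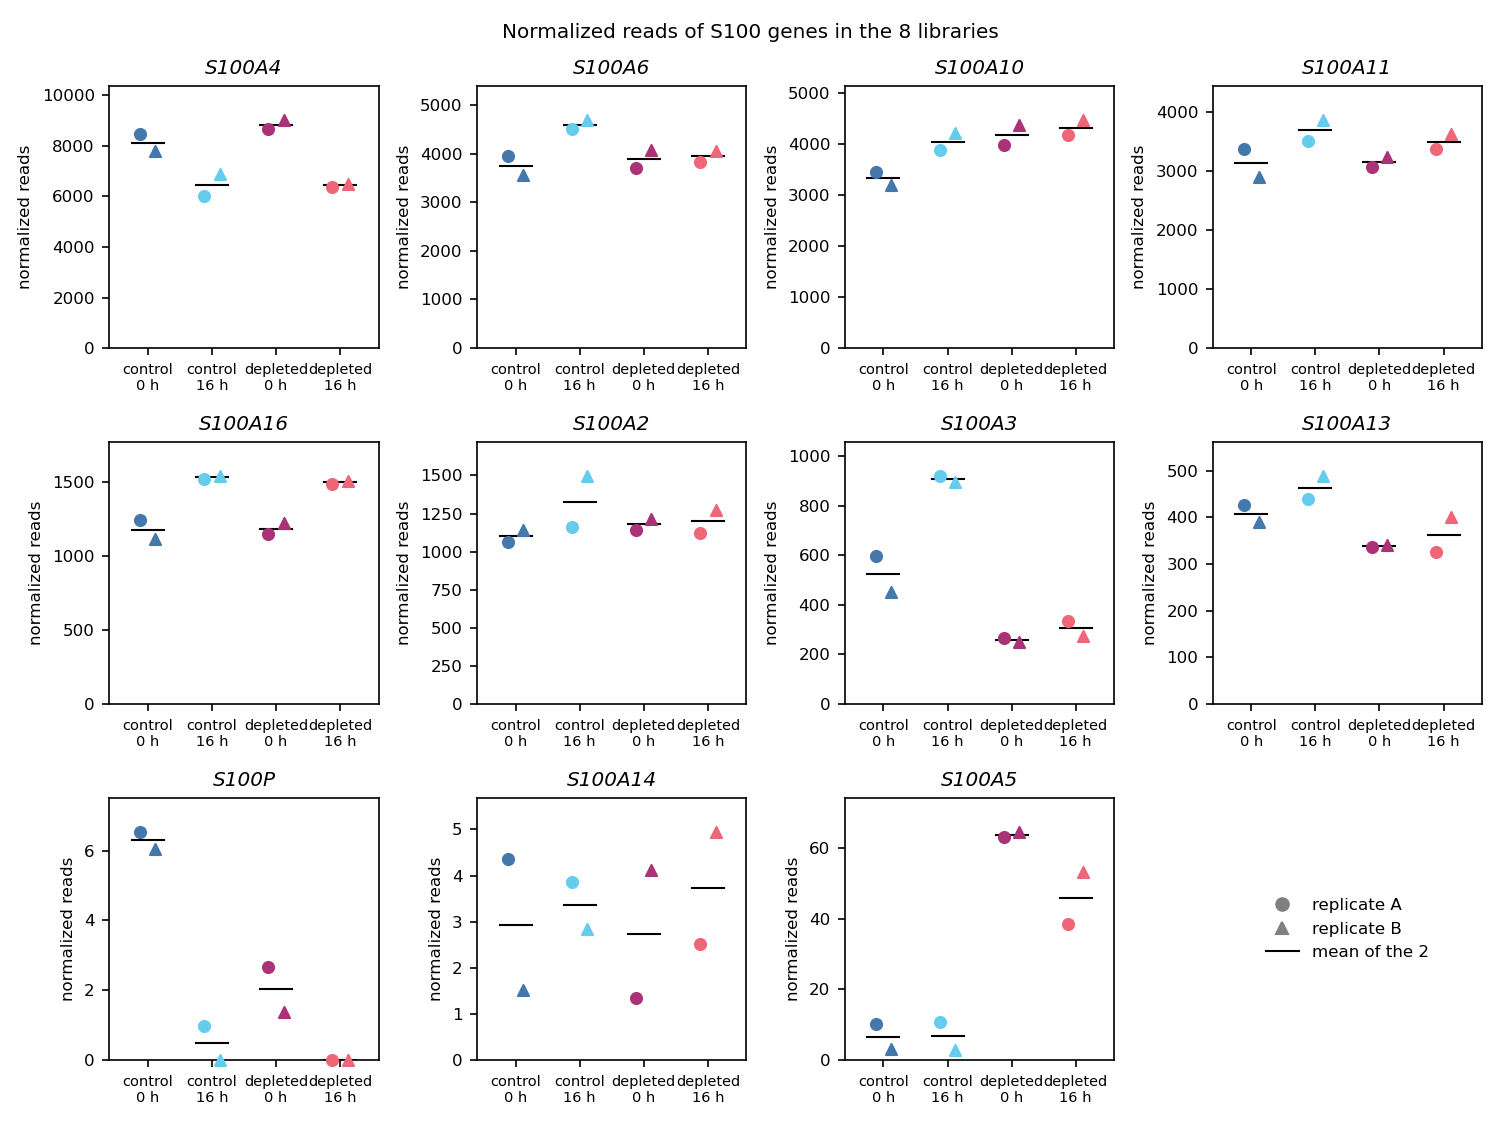
Normalized reads (y axis, from 0, each gene on its own scale) of the 10 S100 genes and of S100A5 in the 8 libraries, with circles for replicate A, triangles for replicate B and a line for the mean of the 2. S100A3 is lower and S100A5 higher in mutp53-depleted cells, and S100A4 is lower and S100A16 higher at 16 h in both kinds of cells.

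S100A13 was lower in mutp53-depleted cells. Its protein takes part in the non-classical release of FGF1 and interleukin-1α. It measured 426 and 389 normalized reads at 0 h in control cells, 439 and 488 at 16 h, and after mutp53 depletion 337 and 341 at 0 h and 325 and 399.9 at 16 h. Control libraries were above mutp53-depleted libraries at each time. At 16 h the level was 0.782 of control (log2 -0.36, SE 0.108, limma adjusted p = 0.00989) and at 0 h 0.832 of control (log2 -0.26, SE 0.108, adjusted p = 0.04998, just under the threshold). The result at 0 h was lost without any 1 of the 4 libraries at 0 h, with adjusted p of 0.246 and 0.0592 without replicate A or B of control cells and 0.156 and 0.134 without replicate A or B of mutp53-depleted cells. That at 16 h was lost without replicate B of control cells (-0.28, adjusted p = 0.0855) or replicate A of mutp53-depleted cells (-0.21, adjusted p = 0.183). With TNF-α the change was 0.18 in control cells (95% interval -0.04 to 0.41) and 0.09 in mutp53-depleted cells (-0.14 to 0.32). S100A13 shares 111 bases with CHTOP on the opposite strand, whose highest value was 674 normalized reads, and it spans S100A1, which had no read.

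S100A2, a mainly nuclear S100 protein that binds p53 and whose gene is known as a target of wild-type p53, showed no difference past the threshold. It measured 1062 and 1141 normalized reads at 0 h in control cells, 1162 and 1495 at 16 h, and after mutp53 depletion 1144 and 1216 at 0 h and 1123 and 1274 at 16 h. The 2 control libraries at 16 h stood far apart, and the lower of them lay among those of mutp53-depleted cells at 16 h. Mutp53 depletion gave a log2 change of 0.10 at 0 h (95% interval -0.11 to 0.31) and -0.14 at 16 h (-0.35 to 0.07). TNF-α gave 0.26 in control cells (0.05 to 0.47, limma adjusted p = 0.0618) and 0.02 in mutp53-depleted cells (-0.19 to 0.23). Without replicate A of control cells at 16 h, the TNF-α change in control cells became 0.44 and the depletion change at 16 h -0.32. Without replicate B of control cells at 16 h, the TNF-α change in control cells became 0.08 and the depletion change at 16 h 0.04.

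S100P and S100A14 were near the limit of detection. S100P, which binds ezrin and RAGE, had 9 and 4 reads in control cells at 0 h, 1 and 0 at 16 h, and after mutp53 depletion 4 and 1 at 0 h and none in either library at 16 h. Its mean of 2.20 normalized reads was under the minimum of 2.5 and it was not tested. From control cells at 0 h to 16 h its reads went from 13 to 1, and per read on genes the level at 0 h was 11.1 times that at 16 h (exact 95% interval 1.67 to 471, counting error only). In mutp53-depleted cells they went from 5 to 0. Set against a floor of 3 reads over the 2 libraries at 16 h, the level at 0 h was 1.50 times that floor. This ratio takes the 5 reads as exact and leaves out their counting error, so it is no lower bound. S100A14, an epithelial member, had 1 to 6 reads in each library and 25 in all, its groups overlapped in all 4 comparisons, and the 95% intervals of its log2 changes lay between -1.55 and 1.87. A count of 3 reads is worth 2.01 to 4.55 normalized reads, so changes in either gene below that size were not detectable at this depth.

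The other S100 genes listed were nearly all without reads. S100A9, a subunit of the neutrophil protein calprotectin, had 2 reads over all libraries, 1 in each replicate B of control cells. The remaining 9, S100A1, S100A7, S100A7A, S100A7L2, S100A8, S100A12, S100B, S100G and S100Z, had none. A count of 0 allows up to 2.01 to 4.55 normalized reads in a library.

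The calls among the S100 genes are given beside the share called among all genes. Of the 10, 9 were among the genes tested, and S100A5, called at both times with depletion, is not counted with them. For mutp53 depletion at 0 h, 0 of 9 were called, against 15.4% of all genes. At the adjusted p alone 3 passed, S100A10 up and S100A3 and S100A13 down, against 52.5%. For depletion at 16 h 1 of 9 was called, S100A3, against 15.2%, and 3 passed the adjusted p alone, all down (S100A3, S100A6 and S100A13), against 51.3%. For TNF-α in control cells 0 of 9 were called, against 7.24%. At the adjusted p alone 6 passed, S100A3, S100A6, S100A10, S100A11 and S100A16 up and S100A4 down, against 26.3%. For TNF-α in mutp53-depleted cells 0 of 9 were called, against 6.36%, and 2 passed the adjusted p alone, S100A16 up and S100A4 down, against 26.7%. At an unadjusted limma p under 0.05 7 passed in control cells, against 5413 of all 14800 genes. In mutp53-depleted cells 2 passed, against 5548 of 14800. These 2 TNF-α comparisons share no libraries, but each shares its libraries with the depletion comparisons, and a difference between their counts is not a test. The interaction, which is that test, passed the adjusted p for 0 of 9 against 2.86% of all genes. An unadjusted limma p under 0.05 was found for 3 (S100A3, S100A6 and S100A10), all negative, against 2004 of 14800 genes. In limma, the median log2 change of the 9 genes was 0.26 for TNF-α in control cells, where that of all genes was -0.05, and 0.09 in mutp53-depleted cells, where that of all genes was -0.06. For depletion the medians were 0.01 at 0 h and -0.08 at 16 h, with 0.03 and -0.01 for all genes. In bulk RNA, fewer cells that express a gene and less of its RNA per cell cannot be told apart.

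**Figure D4:**
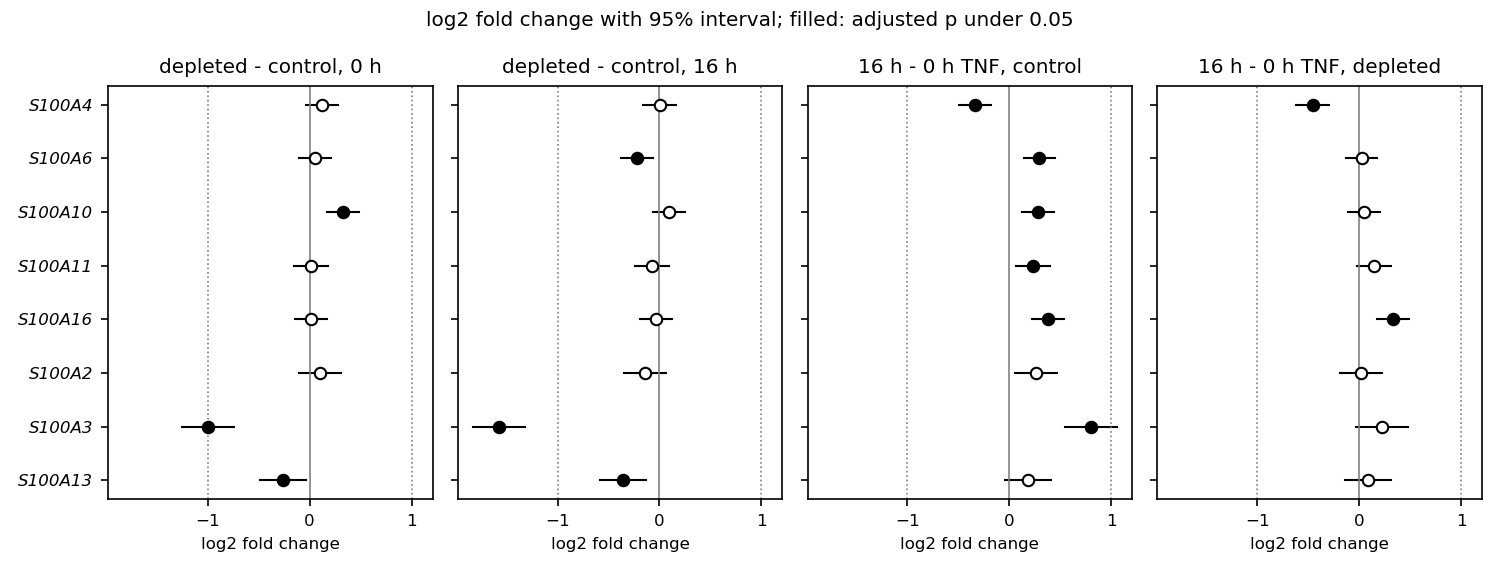
log2 fold changes (x axis) with 95% intervals of the 8 well-expressed S100 genes in the 4 comparisons, mutp53-depleted over control at 0 h and 16 h and 16 h over 0 h of TNF-α in control and mutp53-depleted cells; filled points have an adjusted p under 0.05 and dotted lines mark 2-fold. S100A3 at 16 h is the one point past 2-fold with its call, and in control cells 5 points lie to the right of 0 with filled symbols.

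The mRNAs of proteins that S100 proteins work with were mostly present. The counts in the lists that follow stand beside shares called of 15.4% and 15.2% of all genes for depletion at 0 h and 16 h, and of 7.24% and 6.36% for TNF-α in control and mutp53-depleted cells. Of 23 partners and receptors 21 were tested. At 0 h 2 were called up and 1 down with mutp53 depletion, at 16 h 2 up and 2 down, and none with TNF-α in either kind of cell. Annexin A1, the partner of S100A11 and a phospholipid-binding protein, rose from 51.3 ± 16.8 normalized reads (SD, n = 2) in control cells to 457 ± 8.81 after depletion at 0 h, and from 72.8 ± 2.34 to 469.5 ± 5.95 at 16 h. Its log2 change with depletion was 3.17 (SE 0.17, limma adjusted p = 5.37e-11) and 2.67 (SE 0.17, adjusted p = 4.65e-10). Ezrin (EZR), the cytoskeletal linker bound by S100P, was at 3147 ± 145 and 7102 ± 206 at 0 h, a log2 change of 1.17 (SE 0.073, adjusted p = 3.33e-10). ANXA2, named here outside the rule because its protein is the partner of S100A10, measured 7786 and 6855 normalized reads at 0 h and 10376 and 10303 at 16 h in control cells. In mutp53-depleted cells it measured 9431 and 9767 at 0 h and 11023 and 11628 at 16 h, above control cells at each time. Like S100A10, ANXA2 had its lowest values in the 2 control libraries at 0 h, and it rose with TNF-α in control cells (log2 0.50, SE 0.074, adjusted p = 4.84e-05) and with depletion at 0 h (0.39, SE 0.074, adjusted p = 0.000222). Unlike S100A10, ANXA2 also passed with TNF-α in mutp53-depleted cells (0.24, SE 0.074, adjusted p = 0.0234). That result was lost without any 1 of the 4 mutp53-depleted libraries, with adjusted p of 0.181 and 0.0936 without replicate A or B at 0 h and 0.0533 and 0.191 at 16 h.

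Of 9 genes of plasminogen activation, the pathway for which the S100A10 complex is a receptor at the cell surface, 8 were tested. With TNF-α 5 were called up and 0 down in each kind of cell, and PLAU, PLAT and PLAUR were called in both. With mutp53 depletion 2 were called up at 0 h, and 2 up and 1 down at 16 h. PLAU, which encodes urokinase, was at 56.4 ± 5.90 normalized reads at 0 h and 618 ± 231 at 16 h in control cells, and at 60.0 ± 1.43 and 1184 ± 16.8 in mutp53-depleted cells. PLAT, the tissue-type activator, was at 25.6 ± 1.85 and 295 ± 137 in control cells and 104 ± 7.43 and 267 ± 28.2 in mutp53-depleted cells. Its interaction was -2.05 (SE 0.322, limma adjusted p = 0.00106). SERPINB2, an inhibitor of both activators, was at 4.06 ± 1.45 and 13.5 ± 11.02 in control cells and 2.38 ± 0.516 and 301 ± 1.36 in mutp53-depleted cells, with an interaction of 5.19 (SE 0.677, adjusted p = 0.000178).

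Of 13 annexin genes listed, 9 were tested. ANXA1 was the only one called with depletion at either time, and ANXA9 the only one called with TNF-α, down in both kinds of cells. ANXA9 was at 20.9 ± 9.02 and 4.33 ± 2.09 normalized reads in control cells and 23.8 ± 10.9 and 4.37 ± 0.941 in mutp53-depleted cells. Its call in control cells was lost without replicate B at 0 h (-1.60, limma adjusted p = 0.0955) or at 16 h (-1.62, adjusted p = 0.0551), and that in mutp53-depleted cells without replicate B at 0 h (-1.68, adjusted p = 0.0802).

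Of 33 other EF-hand genes 27 were tested, and depletion called 1 up and 4 down at 0 h and 0 up and 2 down at 16 h. At the adjusted p alone 5 passed up and 15 down with depletion at 0 h, and 4 up and 14 down at 16 h. Of all 14800 genes, 52.5% passed it at 0 h (4035 up and 3736 down) and 51.3% at 16 h (3678 up and 3915 down). NUCB1, which encodes the Golgi calcium-binding protein nucleobindin, was at 701 ± 14.4 and 445 ± 37.1 normalized reads in control cells and 208 ± 50.3 and 126 ± 39.6 in mutp53-depleted cells, a log2 change of -1.77 (SE 0.172, limma adjusted p = 1.10e-07) at 0 h and -1.85 (SE 0.172, adjusted p = 5.66e-08) at 16 h. With the median of the 50 neighbouring genes removed, the changes of NUCB1 were -1.24 at 0 h and -1.17 at 16 h. At 0 h CIB2 was at 33.4 ± 4.16 in control and 9.16 ± 0.629 in mutp53-depleted cells, a change of -1.76 (SE 0.391, adjusted p = 0.000980). Its call at 16 h (-1.08, adjusted p = 0.0269) was lost without replicate B of control cells (-0.64, adjusted p = 0.270) or replicate A of mutp53-depleted cells (-0.83, adjusted p = 0.154) at that time, without a filter (0.0599) and with DESeq2 (0.0968). CALB2, which encodes calretinin, was called down at 0 h with depletion (-1.61, adjusted p = 0.0310). That call was lost without any 1 of the 4 libraries at 0 h, with adjusted p of 0.0649 and 0.170 without replicate A or B of control cells and 0.0908 and 0.0989 without replicate A or B of mutp53-depleted cells. With TNF-α 1 of the 27 was called in control cells, CALB2, down, and 0 in mutp53-depleted cells. In the latter 3 passed the adjusted p alone upward and 7 downward. Of all 14800 genes tested, 26.7% passed it in that comparison, 1451 upward and 2506 downward, so the lean downward was also that of all genes. The CALB2 call with TNF-α (-1.75, adjusted p = 0.0377) was lost without any 1 of the 4 control libraries, with adjusted p of 0.0854 and 0.213 without replicate A or B at 0 h and 0.125 and 0.0651 at 16 h.

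Of 21 epidermal differentiation genes that are no S100 genes, 2 were tested and 1 called, TCHH, which encodes trichohyalin of the hair follicle. Like S100A3 it was lower in mutp53-depleted cells, at 99.3 ± 0.912 against 24.7 ± 1.99 normalized reads at 0 h and 134 ± 10.0 against 25.1 ± 4.65 at 16 h (log2 -1.97 and -2.38, SE 0.225, limma adjusted p = 8.15e-07 and 7.23e-08). Of 22 other neighbours on the arm 21 were tested, and depletion called 1 up and 1 down at each time, and TNF-α 1 up and 1 down in control cells and 1 down in mutp53-depleted cells. SLC27A3, a fatty acid transport gene, fell from 275.5 ± 6.77 to 64.4 ± 3.76 at 0 h and from 230.5 ± 28.2 to 51.9 ± 3.63 at 16 h. CGN, which encodes the tight junction protein cingulin, rose with TNF-α in control cells from 39.6 ± 16.9 to 148 ± 6.47 (log2 1.94, SE 0.276, adjusted p = 2.95e-05). In mutp53-depleted cells its TNF-α change was -0.115, and the interaction was -2.05 (SE 0.39, adjusted p = 0.00518). CGN was called up with depletion at 0 h (1.10, adjusted p = 0.00248), a change of 0.67, under 2-fold, without replicate A of control cells at 0 h. With depletion at 16 h it was lower, short of 2-fold (-0.95, adjusted p = 0.00759), and at -0.54 without replicate B of mutp53-depleted cells at 16 h. The median change of the 50 nearest tested genes with depletion at 0 h was 0.16 to 0.23 around the S100 genes of chromosome 1, and less that median S100A3 was at -1.20 and S100A13 at -0.43, while S100A10 was at 0.10.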

How the data were processed

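Strand-specific poly(A) mRNA libraries of SW480 cells, 2 per group, were analysed; the ChIP-seq and GRO-seq samples were not used here. STAR was used by the authors to map the single-end reads, and HOMER to count those on RefSeq exons by strand. They deposited the counts as a signal, the reads multiplied by 1 factor per library to equal totals. At least 99.989% of values were whole reads of their library (within 0.0051 normalized reads of a whole multiple). The table's header gives hg19, whereas the Methods name hg38. The deposited log2 fold changes, p-values and adjusted p-values of 4 comparisons were not used.

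A limma 3.58.1 model (R 4.3.3, lmFit, contrasts.fit, eBayes with trend) of the 4 group means was fitted to log2(normalized reads + 1) of 14800 genes whose mean reached 2.5. The procedure was tested on simulated data. Fold changes on this scale understate changes of low genes. Alternatives were median-ratio scaling, pseudocounts of 0.1 and 5, no filter, a mean of at least 10, the replicate letter as a block, edgeR 4.0.16 and DESeq2 1.42.0 on recovered reads, the median of the 50 neighbouring genes removed, and leaving out each library. Replicates are biological per the study's methods, and within each group they differed by more than counting noise (chi-square of 2.07 to 3.93 per gene).

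The S100 genes, the gene lists and the tests were chosen with earlier results of these data known. The text names the 10 S100 genes, the other S100 genes listed, and from each list the called genes with the 3 largest absolute log2 changes. ANXA2 was added after its values were seen. Certain genes covered by this rule are not reported here. Promoter windows came from RefSeq, and all 10 genes matched by symbol. Intervals of read ratios are exact conditional intervals at 95%.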

Additional observations from a re-analysis of the deposited data

How the results depend on the processing

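With 2 libraries per group, single libraries decide several of the smaller changes, and depth limits S100P and S100A14 to a few reads. The results counted here are those of the 10 S100 genes in every comparison and of the other named genes where they passed the threshold. Under the alternatives with a test of their own, 1403 kept their direction and their side of the threshold, 66 lost and 13 gained the threshold, and 40 changed sign. Removing the neighbours' median kept each adjusted p as it was, so it tests nothing again, and it changed 6 signs. The sign changes were all in S100 genes whose change had not passed the threshold. S100A5, whose changes with TNF-α are not counted, kept its sign in 12 of 18 alternatives in control cells and in 14 of 16 for the interaction. The cause was not tested in any of these cases.

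S100A3 was called at 16 h in all 17 alternatives with a test of their own. For depletion at 0 h the count of S100 genes called went from 0 to 1, in each case S100A3, with median-ratio scaling, edgeR's quasi-likelihood test, edgeR's exact test, DESeq2 and the neighbours' median removed, and ranged from 0 to 1 when a library was left out. Without a filter S100P was the 1 gene called for TNF-α in control cells and the 1 called in mutp53-depleted cells. Leaving out a library gave 0 to 1 for TNF-α in control cells, where S100P entered without either library of mutp53-depleted cells at 16 h because its mean then passed 2.5, and 0 to 1 for the interaction.

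With the replicate block the interaction called 1, S100A3 (adjusted p = 0.0187), and S100A2 passed for TNF-α in control cells (0.26, adjusted p = 0.0133). The block is a hint only, since the differences between A and B correlated across groups by -0.08 to 0.22 and the letters were not taken to pair the libraries. It moved no other count of S100 genes called.

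The values that changed sign were as follows. For depletion at 0 h, removing the neighbours' median gave -0.063 for S100A2, -0.08 for S100A4, -0.15 for S100A6, -0.218 for S100A11 and -0.153 for S100A16. S100A11 was at -0.011 with median-ratio scaling, -0.029 with the quasi-likelihood test, -0.028 with the exact test and -0.018 with DESeq2. S100A16 was at -0.012 with median-ratio scaling, -0.034 with the quasi-likelihood test, -0.035 with the exact test and -0.022 with DESeq2. At 16 h S100A4 was at -0.008 with either edgeR test and -0.066 with the neighbours' median removed. Leaving out single libraries gave -0.024 to 0.126 for S100A6, -0.099 to 0.121 for S100A11, -0.072 to 0.092 for S100A16 and -0.647 to 0.48 for S100A14 for depletion at 0 h. At 16 h it gave -0.322 to 0.041 for S100A2, -0.093 to 0.096 for S100A4 and -0.299 to 0.456 for S100A14. TNF-α in control cells ranged from -0.305 to 0.787 for S100A14. In mutp53-depleted cells TNF-α ranged from -0.071 to 0.111 for S100A2, -0.045 to 0.094 for S100A6, -0.02 to 0.116 for S100A10, -0.06 to 0.237 for S100A13 and -0.16 to 0.967 for S100A14. The interaction ranged from -0.197 to 0.023 for S100A11, -0.244 to 0.053 for S100A13, -0.401 to 0.726 for S100A14 and -0.123 to 0.04 for S100A16.

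S100A2 also passed for TNF-α in control cells with median-ratio scaling, both edgeR tests and DESeq2 (adjusted p = 0.0110 to 0.0414), and S100A11 in mutp53-depleted cells with median-ratio scaling and both edgeR tests (adjusted p = 0.0453 to 0.0492). S100A11 in control cells lost the threshold without a filter (adjusted p = 0.0664), and S100A13 at 0 h with a pseudocount of 0.1 (0.0586), without a filter (0.0673) and with DESeq2 (0.0892).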
